A study of Mus musculus with 6 samples.

Results

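The transcripts of 10 inflammatory cytokine genes, Tnf, Il6, Il1a, Il1b, Il1rn, Il10, Il12b, Il18, Il23a and Csf1, were followed in RAW264.7 macrophages treated with SKI-II. The genes were taken by symbol from a table of 49315 genes. RAW264.7 is a mouse macrophage line, wild type in its labels, whereas SKI-II is a synthetic inhibitor of sphingosine kinases. Cells received 4 μg/mL of SKI-II or an equal volume of the vehicle DMSO for 24 h, with no infection or other stimulus in the labels, and poly(A)-enriched RNA was sequenced from 3 libraries per group. All 6 libraries came from the same line and differed by treatment. The labels do not say whether the libraries came from separate cultures. The study's methods refer RNA-seq treatment and extraction to its quantitative PCR assay, for which they state 3 biological replicates per condition, without saying that these were the libraries sequenced. The p-values measure the spread between these libraries.

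Macrophages use these genes to start, sustain and limit inflammation. Tumor necrosis factor, interleukin-6 (IL-6) and the IL-1 cytokines act early on neighboring cells, IL-12 and IL-23 steer lymphocytes, and macrophage colony-stimulating factor supports the survival and growth of macrophages themselves. The set also holds 2 brakes. IL-10 represses inflammatory transcription, and the IL-1 receptor antagonist encoded by Il1rn occupies the IL-1 receptor without activating it. In resting macrophages most of these transcripts are scarce, and many are unstable messenger RNAs that carry AU-rich elements in the 3′ untranslated region (UTR).

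The libraries held 12495957 to 20050677 counts, and the 10 genes together took 0.0106% to 0.0165% of them. Macrophage marker genes were abundant, with Lyz2 at a mean of 109800 normalized counts and Csf1r at 16890 in DMSO. Of the 10 macrophage markers, 1 was higher with SKI-II (Cd14, log2 fold change 1.41, adjusted p = 0.000273), 4 were lower (Lyz2, Itgam, Adgre1 and Mpeg1) and 5 did not pass the test. Their summed level was 9380 to 13500 CPM (counts scaled to the library size) with DMSO and 5810 to 8170 with SKI-II, without overlap. The sums depended on Lyz2 and Cd14. Without Lyz2 they were 3740 to 4130 CPM with DMSO and 4140 to 4350 with SKI-II, and without both genes 3330 to 3680 and 2930 to 3080, and both of these were added after the data were seen. The T cell list summed to 6.06 to 7.22 CPM with DMSO and 11.3 to 15.0 with SKI-II, with Lck (log2 fold change 0.97, adjusted p = 0.00412) carrying nearly all of it. Of its 7 genes 4 had any reads, Cd3g, Cd8a and Trac were at 0, and Cd3e and Cd3d had 1 count in each group. The genes of this list were named after their values were seen. All 4 epithelial markers were at 0, and the B cell list summed to 0 to 0.247 CPM with DMSO and 0.254 to 0.349 CPM with SKI-II, without overlap. The fibroblast and neutrophil lists reached 1.32 and 6.96 CPM, with overlap between the groups. The part of these shifts in the cytokine results was not tested.

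Of the cytokine transcripts, 4 changed with SKI-II. Il23a, Csf1 and Tnf rose and Il1rn fell, by edgeR's quasi-likelihood test at an adjusted p below 0.05. Il1a and Il18 did not pass that test. Il6, Il1b, Il10 and Il12b had too few reads to be tested. Each of the 3 genes that rose was higher in every SKI-II library than in every DMSO library, and Il1rn was lower in every SKI-II library. Over all 12274 genes tested, 18.4% were called higher and 19.7% lower, and with a log2 fold change beyond 1 as well, 8.28% and 7.44%. The groups did not overlap for 24.8% of all tested genes in the upward direction and for 25.5% in the downward direction. The calls on these 4 genes are read against that broad response, in which 4668 genes were called in all. Only whole-culture RNA was measured, so a change in the number of expressing cells cannot be told apart from a change in RNA per cell.

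**Figure D1:**
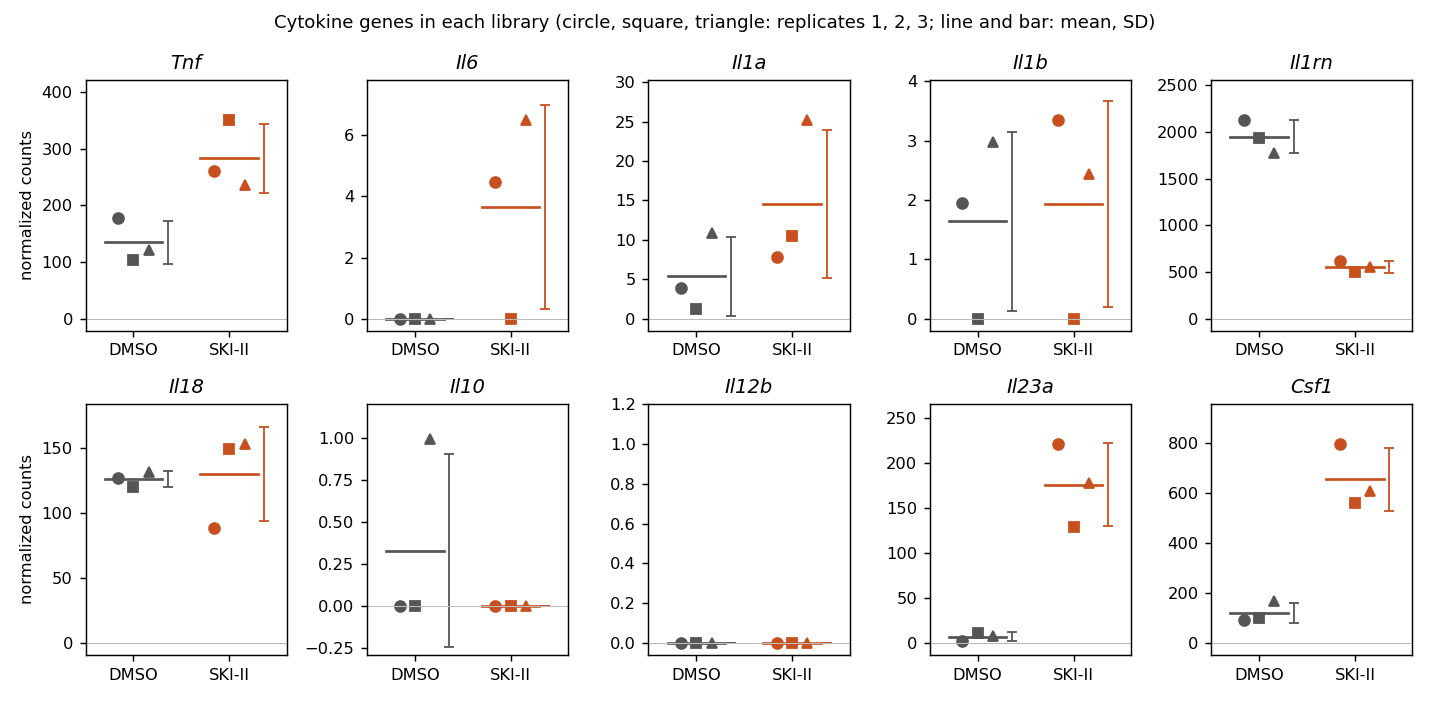
Normalized counts (vertical axes, each with its own scale) of the 10 cytokine genes in the 3 DMSO and 3 SKI-II libraries. Symbols are replicates 1, 2 and 3, horizontal lines are means and vertical bars are SD. Tnf, Il23a and Csf1 lie higher in all SKI-II libraries and Il1rn lower, while Il1b, Il10 and Il12b stay at or near 0.

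Tnf encodes tumor necrosis factor, the early alarm cytokine of macrophages that is made as a membrane protein and shed by a protease. The gene lies on the minus strand at chr17:35199381-35202007 of GRCm38 (GENCODE M21), with 1639 bases of exon. The normalized count, which is the read count scaled to a library of average size, was 177.7, 103.6 and 121.8 with DMSO and 260.7, 351.1 and 235.5 with SKI-II. The lowest SKI-II library thus stood above the highest DMSO library. The mean rose from 134 ± 38.6 to 282 ± 60.8 (SD, n = 3 each), a 2.09-fold change (log2 fold change 1.07, SE 0.24, adjusted p = 0.00722 by edgeR). Over the other ways of processing the table the log2 fold change lay between 0.88 and 1.31, so a rise of more than 2-fold did not hold under all of them, while the call did.

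The promoter of Tnf is shown because the transcript rose. The 250 bases before the RefSeq start (GRCm38.p6, minus strand, chr17:35202008-35202257) are printed 5′ to 3′, with the capitals marking a match to the core of PU.1 sites, TTCCTC on the strand shown (GAGGAA on the other), 117 to 112 bases before the start, and a TATA box, TATAAA, 29 to 24 bases before it.
Tnf: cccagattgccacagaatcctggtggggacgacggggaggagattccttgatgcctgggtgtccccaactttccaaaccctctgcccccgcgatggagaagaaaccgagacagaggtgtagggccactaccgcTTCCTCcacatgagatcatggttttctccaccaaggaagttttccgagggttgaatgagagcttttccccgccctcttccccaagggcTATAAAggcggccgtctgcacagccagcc
Both strands of every promoter window were searched for the same motifs. GAGGAA was present in 23.3% and TATAAA in 12.4% of the 32851 promoter windows of this length, so neither match sets this promoter apart. No NF-kB match of the form searched, present in 7.25% of windows, was found in the letters of this window.

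Tnf and Il23a were also the 2 genes of the set whose 3′ UTR holds the nonamer TTATTTATT, the core of the AU-rich element through which tristetraprolin and related proteins shorten the life of cytokine messages. The stretches of 30 bases that hold it are given 5′ to 3′ with the nonamers in capitals, overlapping ones run together. The stretch for Tnf holds 3 of its 5 nonamers. The stretches lie at chr17:35199688-35199717 for Tnf and chr10:128296183-128296212 for Il23a (GRCm38, minus strand, transcripts Tnf-201 and Il23a-201).
Tnf: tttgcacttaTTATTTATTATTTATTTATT
Il23a: tagatgatggTTATTTATTctatttataag
The nonamer was found in 7.12% of 20751 mouse 3′ UTRs. Among 3′ UTRs of like length, within 1.25-fold, 4.22% held it for Tnf and 3.96% for Il23a. The Tnf 3′ UTR of 764 bases held 5 nonamers and 8 copies of ATTTA, and the Il23a 3′ UTR of 657 bases held 1 nonamer and 6 copies of ATTTA. At least 8 copies of ATTTA were found in 0.38% of 3′ UTRs of the length of Tnf, and at least 6 in 1.78% of those of the length of Il23a.

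The other cytokines of the set carried ATTTA without the nonamer. Il6 had 6 copies in 427 bases, Il10 had 6 in 706, Il12b had 6 in 774, Il1b had 4 in 459, Csf1 had 4 in 2111, Il1a had 3 in 1101 and Il18 had 1 in 123. Il1rn stood apart, with no ATTTA in a 3′ UTR of 1864 bases, which was the case for 9.89% of 3′ UTRs of like length. For its length the count of Csf1 was ordinary, with at least as many copies in 50.2% of 3′ UTRs of like length, as it was for Il1a (36.0%) and Il18 (16.8%). The share was 0.423% for Il6, 2.31% for Il10, 2.49% for Il12b and 3.77% for Il1b.

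Il6 encodes IL-6, which drives fever and the acute-phase response through a receptor that signals with gp130. It had no read in any DMSO library and 4, 0 and 8 reads in the SKI-II libraries. Reads were thus found with SKI-II alone, but the second SKI-II library had none either, and the groups overlapped at 0. The level with SKI-II was 0.236 CPM over the group, and a count of 0 in DMSO allows up to 3 counts, or 0.0661 CPM. With the SKI-II reads taken as exact, Il6 was thus at least 3.57-fold higher with SKI-II. The intervals below cover counting error only. This limit covers less, the counting error of the 0 in DMSO and not that of the SKI-II reads. It fell to 1.94-fold without the third SKI-II library, to 2.27-fold without the first DMSO library and to 2.30-fold without the third. Il6 was under the filter on low counts. In the fit without that filter edgeR gave it an adjusted p of 0.0271, and DESeq2 gave 0.143. The unfiltered edgeR fit gave the called genes smaller adjusted p-values than the main test, with Tnf at 1.83e-05 in place of 0.00722. Its p-values are thus not on a par with those of the main test. At this depth Il6 was not detected with DMSO and barely detected with SKI-II. Its promoter window (chr5:30012864-30013113, GRCm38.p6) held an NF-kB match 44 to 35 bases before the start and an AP-1 match, TGAGTCA, 249 to 243 bases before it.

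Within the IL-1 family the antagonist gene Il1rn fell, Il1a and Il1b were scarce, and Il18 was well read in both groups. Il1rn (chr2:24336853-24351494, plus strand, 5535 bases of exon) was the most abundant transcript of the set in DMSO. Its normalized counts were 2133, 1931 and 1779 with DMSO and 617.7, 494.3 and 554.0 with SKI-II. All 3 SKI-II libraries lay far under the lowest DMSO library, and the spread within each group was small. The mean fell from 1948 ± 177 to 555 ± 61.7 (SD, n = 3 each), which is 3.51-fold lower (log2 fold change -1.81, SE 0.13, adjusted p = 1.56e-05 by edgeR), and the value stayed between -1.90 and -1.73 under all other settings.

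RefSeq gives Il1rn 3 start sites, and counts per gene do not show which of them made the transcripts that fell. The 250 bases before the first (chr2:24336610-24336859, GRCm38.p6, plus strand) are shown because this was the only member that fell, with the capitals marking the AP-1 match TGAGTCA, 141 to 135 bases before the start.
Il1rn: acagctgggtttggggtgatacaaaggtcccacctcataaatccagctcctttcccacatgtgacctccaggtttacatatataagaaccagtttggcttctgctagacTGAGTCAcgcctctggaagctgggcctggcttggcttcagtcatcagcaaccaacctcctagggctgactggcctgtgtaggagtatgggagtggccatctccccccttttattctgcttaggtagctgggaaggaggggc
The AP-1 motif TGANTCA was found in 6.75% of all windows, and the windows of the other 2 Il1rn starts held none of the motifs searched. The antioxidant response element TGACNNNGC (10.2% of windows), the amino acid response element TGATGNAA (3.45%) and the cyclic AMP element TGACGTCA (1.55%) were not found in the printed windows of Tnf, Csf1 and Il1rn. Among the other members, Il12b held an amino acid response element match, TGATGGAA, 59 to 52 bases before its start, and Il1a an AP-1 match, TGACTCA, 12 to 6 bases before its start.

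Il1a encodes IL-1α, an agonist that can act as an alarm signal when cells are damaged. Its counts were 4, 1 and 11 with DMSO and 7, 11 and 31 with SKI-II. The first SKI-II library lay under the third DMSO library, so the groups overlapped. The normalized means were 5.35 ± 4.98 and 14.5 ± 9.39 (SD, n = 3 each), and the log2 fold change of 1.40 (SE 0.72) did not pass the test (adjusted p = 0.135 by edgeR). Leaving out single libraries moved it both ways, to 2.40 (adjusted p = 0.0402) without the third DMSO library and to 0.72 (adjusted p = 0.486) without the third SKI-II library. With the replicate number as a block the log2 fold change was 1.44 (adjusted p = 0.0456 by edgeR). The exons of Il1a (chr2:129299610-129309972, minus strand) overlap Gm14023 on the opposite strand. The sources used here do not say whether the counting used strand, so a part of these few reads may belong to that gene.

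Il1b encodes IL-1β, the secreted agonist that caspase-1 matures. It was read 2, 0 and 3 times with DMSO and 3, 0 and 3 times with SKI-II. The group sums of 5 and 6 counts gave a SKI-II to DMSO ratio of 1.07, with an exact 95% interval of 0.273 to 4.44 (Clopper-Pearson). It lay between 0.746 without the first SKI-II library and 1.72 without the third DMSO library. At this depth the interval spans both a 3-fold fall and a 4-fold rise. The exons of Il1b (chr2:129364570-129371139, minus strand) overlap the antisense gene Il1bos, and the same doubt about strand holds for it.

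Il18 encodes IL-18, which is stored as a precursor and released after caspase-1 cleavage. Its normalized counts were 127.2, 120.0 and 131.7 with DMSO and 88.4, 148.9 and 153.2 with SKI-II. The DMSO libraries lay close together inside the wider range of the SKI-II libraries. The means were 126 ± 5.89 and 130 ± 36.2 (SD, n = 3 each), and the log2 fold change was 0.05 (SE 0.24, adjusted p = 0.899 by edgeR). Its sign turned to -0.06 without the second SKI-II library and to -0.09 without the third. The gene lies at chr9:50554827-50581840 on the plus strand.

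The balance of antagonist to agonist was compared within libraries as the log2 ratio of reads per kilobase, with 0.5 added to each count. Il1rn over Il1b was 8.24, 10 and 7.47 with DMSO and 5.77, 8.48 and 6.07 with SKI-II. Il1b had no read in the second library of either group, so 10 and 8.48 are set by the added 0.5 and are no measured ratios, and no difference is read from this comparison. Since Il1b was so scarce, the ratio of Il1rn to Il1a and Il1b together was added after the data were seen. It was 6.79, 8.08 and 5.41 with DMSO and 4.15, 3.94 and 2.79 with SKI-II, without overlap and with a difference of -3.13 (exact two-sided permutation test, p = 0.1, the smallest this design can give). In the second DMSO library the denominator of this ratio was a single read of Il1a, so its value depends on the added 0.5 as well.

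Among the IL-10 and IL-12 families, Il23a showed the largest change of the 6 tested genes. Il23a (chr10:128296139-128298752, minus strand, 2247 bases of exon) encodes the p19 subunit that makes IL-23 when paired with the product of Il12b. Counts were 2, 9 and 8 with DMSO and 198, 135 and 219 with SKI-II. The gene was near its detection limit in every DMSO library and well measured in every SKI-II library. Normalized means were 7.08 ± 4.77 and 176 ± 46.4 (SD, n = 3 each), a 25.4-fold rise (log2 fold change 4.67, SE 0.49, adjusted p = 5.76e-05 by edgeR). The log2 fold change lay between 4.18 and 5.12 under the other settings that kept the gene. It passed the filter on low counts through its SKI-II libraries alone, and the filter of 10 counts in every library removed it.

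Il12b, the shared subunit of IL-12 and IL-23, had no read in any of the 6 libraries, which allows up to 0.0661 CPM with DMSO and 0.059 CPM with SKI-II. The partner that IL-23 needs was thus not detectable in the libraries in which Il23a was 25.4-fold higher. Il12a, which encodes the remaining subunit of IL-12, also had no read. Il10, the repressor of inflammatory transcription, was read 1 time in the third DMSO library and in no other, with an upper limit of 0.059 CPM for SKI-II. No fold was computed for Il10 or Il12b.

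Csf1 encodes macrophage colony-stimulating factor, the ligand of Csf1r. The gene lies at chr3:107741048-107760469 on the minus strand, with 5281 bases of exon. Its normalized counts were 92.27, 101.1 and 168.3 with DMSO and 797.8, 560.1 and 610.2 with SKI-II. Every SKI-II library held more than 3 times the count of the highest DMSO library. The mean rose from 121 ± 41.6 to 656 ± 125 (SD, n = 3 each), a 5.42-fold change (log2 fold change 2.44, SE 0.24, adjusted p = 7.78e-05 by edgeR), with 2.26 to 2.76 under the other settings.

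The Csf1 promoter (chr3:107760470-107760719, GRCm38.p6, minus strand) is shown because the transcript rose. Capitals mark an NF-kB match, on the strand opposite to the motif, 154 to 145 bases before the start.
Csf1: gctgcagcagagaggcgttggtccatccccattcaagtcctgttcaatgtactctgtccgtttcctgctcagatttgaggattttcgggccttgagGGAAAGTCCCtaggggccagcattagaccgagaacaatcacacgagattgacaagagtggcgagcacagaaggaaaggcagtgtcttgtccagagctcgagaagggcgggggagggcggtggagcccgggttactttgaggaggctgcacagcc
Of the 8 members with an entry in the RefSeq promoter table, Csf1 and Il6 held an NF-kB match in their 250 bases, as did 7.25% of all windows. The former rose with SKI-II and the latter was almost unread. A match describes letters only, and binding was not measured in these libraries.

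**Figure D2:**
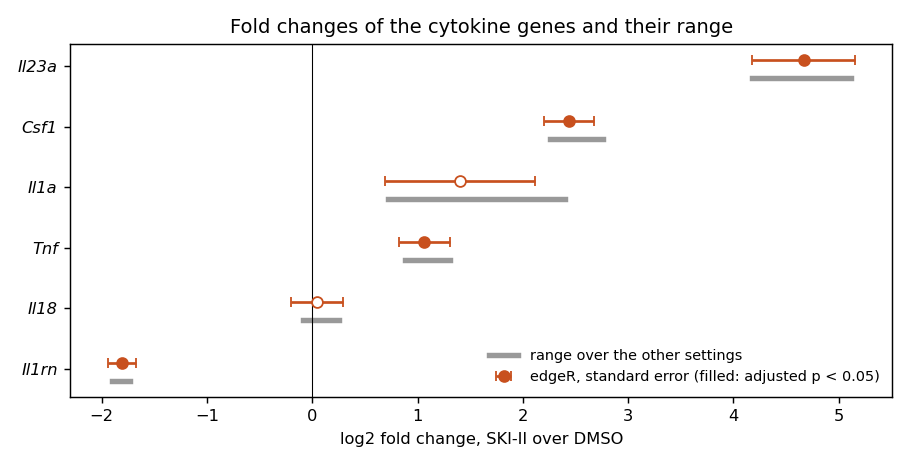
Log2 fold change of SKI-II over DMSO (horizontal axis) for the 6 cytokine genes with enough reads for the test. Points with bars are the edgeR estimate and its standard error, filled at an adjusted p below 0.05, and gray bars span the other processing settings. Il23a, Csf1 and Tnf stay right of 0 and Il1rn left of 0 throughout, while Il18 spans 0 and Il1a has the widest bar.

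The order of the levels changed. Levels of different genes were compared as RPKM, here the reads per kilobase of exon scaled to the library size as well. In DMSO the order was Il1rn at 21.9 ± 2.0, Il18 at 7.64 ± 0.356, Tnf at 5.11 ± 1.47 and Csf1 at 1.42 ± 0.491 (SD, n = 3), and none of these 4 overlapped its neighbor. Il23a (0.196) and Il1a (0.169) followed and overlapped each other, and Il1b was at 0.0535. With SKI-II the top of the order was Tnf at 10.7 ± 2.31, Il18 at 7.87 ± 2.19, Csf1 at 7.74 ± 1.48, Il1rn at 6.25 ± 0.695 and Il23a at 4.89 ± 1.29, and every one of these overlapped its neighbor. Il1a (0.459), Il6 (0.0941) and Il1b (0.0632) remained far lower. Beyond neighbors the levels with SKI-II did separate, with Tnf above Il1rn and Il23a, and Csf1 above Il23a, in all libraries.

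**Figure D3:**
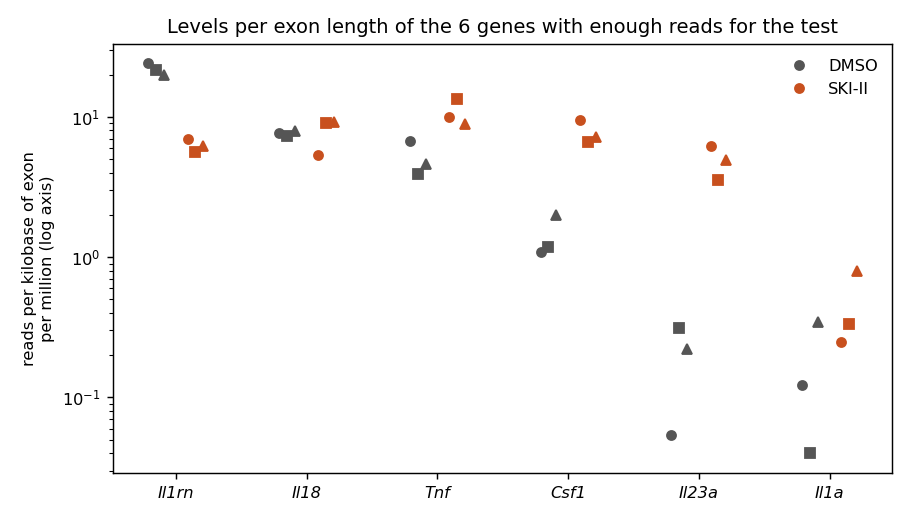
RPKM, the reads per kilobase of exon scaled to library size (vertical axis, log scale) of 6 cytokine genes in each DMSO and SKI-II library, with circles, squares and triangles for replicates 1, 2 and 3. In DMSO the genes step down from Il1rn, at up to 24.0, to Il23a, at up to 0.315, and with SKI-II the first 5 genes lie between 3.57 and 13.4.

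The same shift was seen in the make-up of the cytokine reads, which does not depend on scaling between libraries. Of the reads on the 10 genes, Il1rn took 84.0%, 85.1% and 80.0% with DMSO and 30.9%, 29.2% and 31.4% with SKI-II, so the groups lay far apart. The share of Csf1 was 5.22% ± 2.07 with DMSO and 35.8% ± 3.56 with SKI-II (SD, n = 3), that of Tnf 5.68% ± 1.23 and 15.7% ± 4.36, and that of Il23a 0.311% ± 0.216 and 9.59% ± 1.79. Il18 held 5.41% ± 0.465 and 7.29% ± 2.49. These shares are a description and were not tested, and longer transcripts weigh more in them. Per kilobase of exon the mean share of Il1rn was 60.0% with DMSO and 16.4% with SKI-II, and Tnf, at 28.1%, then had the highest share with SKI-II.

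**Figure D4:**
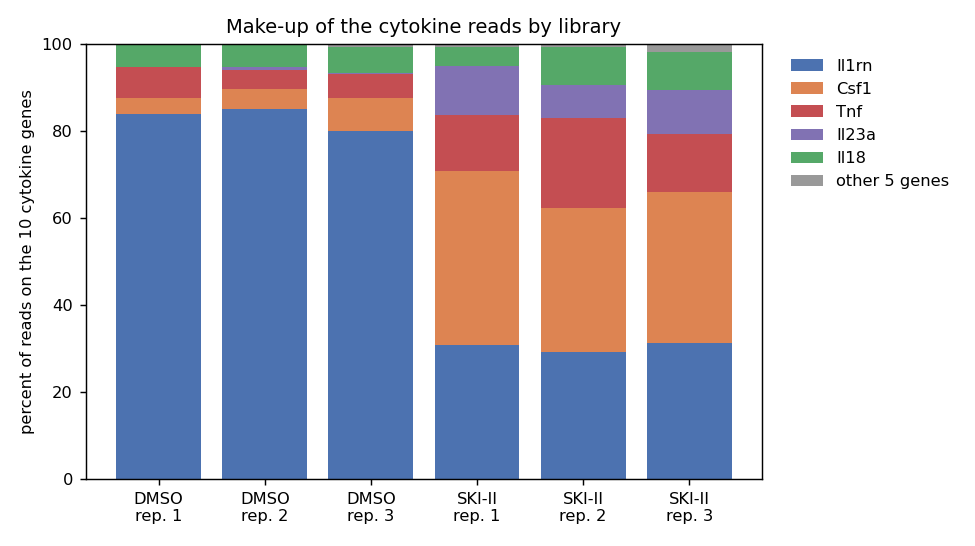
Percent of the reads on the 10 cytokine genes (vertical axis, stacked to 100%) taken by each gene in each of the 6 libraries. Il1rn fills 80.0% to 85.1% of each DMSO bar and 29.2% to 31.4% of each SKI-II bar, where Csf1, Tnf and Il23a take most of the rest.

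Of 15 receptor genes, 13 had reads and 10 were tested, of which none was called higher, 2 were lower and 8 did not pass, with a median log2 fold change of -0.12 beside 0.0038 over all tested genes. Of all tested genes 18.4% were higher and 19.7% lower, and the share of receptors that were lower is close to the latter. At an unadjusted p below 0.05 there were 1 higher and 3 lower, where 23.4% and 23.9% of all tested genes passed. DESeq2, which gave an adjusted p to 15432 genes instead of 12274, called 1 higher and 3 lower, where it called 15.3% and 15.8% of all its genes. Il6ra, the ligand-binding chain for IL-6, fell from 767 ± 80.7 to 394 ± 71.7 normalized counts (SD, n = 3 each; log2 fold change -0.96, SE 0.16, adjusted p = 0.00148 by edgeR). Il12rb1, the chain shared by the IL-12 and IL-23 receptors, fell from 227 ± 81.9 to 112 ± 29.7 (-1.01, SE 0.29, adjusted p = 0.0217). Csf1r, the receptor of the strongly raised Csf1, had a log2 fold change of -0.12 (adjusted p = 0.536), and the tumor necrosis factor receptors Tnfrsf1a and Tnfrsf1b had 0.16 (adjusted p = 0.323) and 0.03 (adjusted p = 0.915). Il6st, which encodes gp130, had 0.35 (adjusted p = 0.0719) and Il10rb -0.12 (adjusted p = 0.569).

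Receptor genes under the filter were looked at after their values were seen. Il1r1, the signaling receptor for IL-1 that the antagonist blocks, had no read with DMSO and 31, 22 and 6 reads with SKI-II. With the SKI-II reads taken as exact, this is at least 17.6-fold higher. This limit fell to 11.2-fold without the first DMSO library, 11.3-fold without the third and 11.6-fold without the first SKI-II library. Without the filter edgeR gave it an adjusted p of 3.88e-09, and DESeq2 gave 3.67e-05. The unfiltered edgeR values here are, as for Il6, not on a par with those of the main test. Il12rb2 had 22 reads with DMSO and 2 with SKI-II, a ratio of 0.0812 (exact 95% interval 0.00926 to 0.33), and an adjusted p of 0.00844 by edgeR without the filter and 0.034 by DESeq2. These were the genes that DESeq2 called beyond those of the main test. Il23r and Il1r2 had no read in any library, so the specific chain of the IL-23 receptor was not detectable in these cells, and Il18r1 had 1 read with SKI-II.

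Genes whose products process, release or bind these cytokines were tested for all 11 on the list, with 4 higher, 1 lower and 6 not called, and a median log2 fold change of 0.39, where 18.4% of all tested genes were higher and 19.7% lower. Adam17, the protease that sheds tumor necrosis factor, fell from 3835 ± 338 to 2253 ± 226 normalized counts (SD, n = 3 each; log2 fold change -0.77, SE 0.13, adjusted p = 0.00128 by edgeR), opposite in direction to Tnf. Capn2, a calpain of the kind that cleaves pro-IL-1α, rose from 1813 ± 98.2 to 3979 ± 982 (1.13, SE 0.17, adjusted p = 0.000776). Sigirr, which encodes an inhibitory receptor of the IL-1 family, rose from 232 ± 8.02 to 367 ± 33.4 (0.66, SE 0.15, adjusted p = 0.00712), and Casp8 from 796 ± 183 to 1240 ± 48.6 (0.64, SE 0.16, adjusted p = 0.0117). Capn1, the fourth that rose, had the smallest change of these, and Casp1, which matures IL-1β and IL-18, had 0.36 (adjusted p = 0.0722). Both were looked up after their values were seen.

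Other cytokine genes and partner subunits numbered 26, of which 19 had reads and 11 were tested. Of these, 4 were higher, 2 lower and 5 not called, with a median log2 fold change of 0.55, and the lower share is close to the 19.7% of all tested genes, of which 18.4% were higher. Il34, the other ligand of Csf1r, rose from 55.6 ± 10.9 to 165.5 ± 33.0 normalized counts (SD, n = 3 each; log2 fold change 1.56, SE 0.25, adjusted p = 0.0011 by edgeR), so both genes for ligands of that receptor were higher. Il16, a chemoattractant cytokine, rose from 186 ± 4.61 to 534.5 ± 110 (1.52, SE 0.18, adjusted p = 0.000211). Lif and Osm, relatives of IL-6 that also signal through gp130, rose by log2 fold changes of 1.32 (SE 0.32, adjusted p = 0.00994) and 0.97 (SE 0.23, adjusted p = 0.00869). The 2 that fell, named after their values were seen, were Tgfb1 (-0.88, adjusted p = 0.00092), which encodes a mainly anti-inflammatory cytokine, and Mif (-0.58, adjusted p = 0.00472). Il12a, Il33, Csf2, Tgfb2, Ifng and Il17a, also named after their values were seen, had no read in any library.

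The list of factors that control the decay and stability of cytokine messages was tested in full. Of its 12 genes, 1 was higher, 1 lower and 10 not called, with a median log2 fold change of 0.049. Over all tested genes, 18.4% were higher and 19.7% lower. The list also holds Tnip1, better known as a regulator of NF-kB signaling, which was not called and was named after its value was seen. Zfp36l1, a relative of tristetraprolin, fell from 453 ± 125 to 203 ± 56.9 normalized counts (SD, n = 3 each; log2 fold change -1.16, SE 0.25, adjusted p = 0.0054 by edgeR). N4bp1, an RNA-binding regulator of inflammatory signaling, rose by 0.50 (SE 0.14, adjusted p = 0.017). Zfp36, which encodes tristetraprolin itself and was looked up after its value was seen, had a log2 fold change of 0.10 (adjusted p = 0.646).

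Of 20 transcription regulators of cytokine genes, 18 were tested and 5 were higher, 4 lower and 9 not called, with a median log2 fold change of 0.16. Of all tested genes 18.4% were higher and 19.7% lower, and the share of regulators that were lower is near the latter. Nfkbiz, which encodes the nuclear cofactor IκBζ, rose from 146 ± 56.1 to 593 ± 123 normalized counts (SD, n = 3 each; log2 fold change 2.03, SE 0.28, adjusted p = 0.000555 by edgeR). Atf3, a stress-induced factor, rose from 1334 ± 146 to 3711 ± 1704 (1.48, SE 0.26, adjusted p = 0.00204). Cebpb and Cebpd, the C/EBP factors of acute-phase and macrophage genes, rose by log2 fold changes of 1.11 (SE 0.14, adjusted p = 0.000246) and 1.08 (SE 0.20, adjusted p = 0.00231). The fifth was Nfkbib (1.01, adjusted p = 0.00144), which encodes an inhibitor of NF-kB. The 4 that fell were Relb (-0.81, adjusted p = 0.0241), Rel (-0.69, adjusted p = 0.00366), Irf1 (-0.61, adjusted p = 0.0255) and Nfkb2 (-0.50, adjusted p = 0.0262). The other NF-kB subunit genes, Rela (0.30, adjusted p = 0.104) and Nfkb1 (0.15, adjusted p = 0.297), did not pass the test, nor did Nfkbia (-0.53, adjusted p = 0.0558), which encodes another inhibitor of NF-kB. Nfkbib and these 7 were named after their values were seen.

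**Figure D5:**
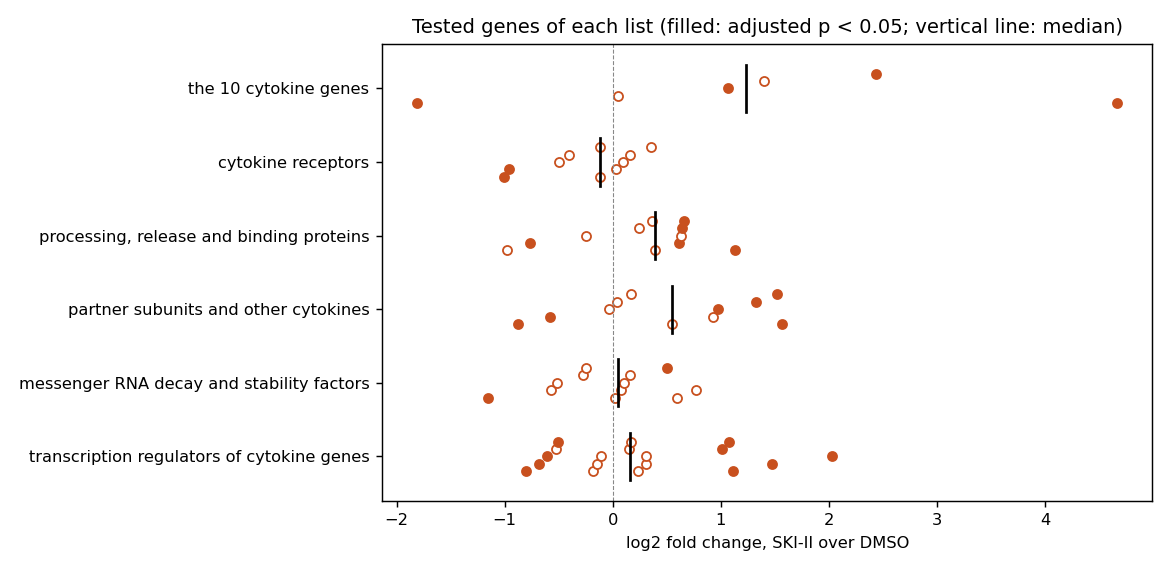
Log2 fold change of SKI-II over DMSO (horizontal axis) for each tested gene of the 10 cytokine genes and 5 related lists, filled at an adjusted p below 0.05, with vertical lines at the medians. Il23a at 4.67 and Il1rn at -1.81 lie farther from 0 on their sides than any tested gene of the other lists.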

How the data were processed

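RNA from RAW264.7 cells was sequenced in 3 DMSO and 3 SKI-II libraries, grouped by the treatment in the labels. The authors enriched poly(A) RNA and deposited the raw counts of reads per Ensembl gene for each library. The submitters' processing notes name Trimmomatic 0.36, STAR 2.5.2b, featureCounts of Subread 1.5.2 and DESeq2. The sources used here do not give the build, annotation release or strand setting. A read shared with an overlapping gene could be counted for either or for none. GENCODE M21 (GRCm38) named 48970 of the 49315 identifiers and gave positions, exon lengths and 3′ UTRs. Promoters came from RefSeq, in which 8 of the 10 genes had entries.

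Groups were compared in edgeR 4.0.16 (R 4.3.3) by its quasi-likelihood F test after TMM scaling. Its filter by group (counts of at least 10, totals of at least 15) kept 12274 genes, over which p-values were adjusted by Benjamini-Hochberg. Normalized counts were scaled to the mean effective library size of 16042438. DESeq2 1.42.0, limma-voom (limma 3.58.1), RLE scaling, library size alone, no filter, at least 10 counts in every library, a replicate block, a prior count of 2 and each library left out were alternatives. For a group at 0, 3 counts over the group were taken as the limit (0.152 to 0.236 CPM for a single library). Libraries of a group differed by more than sampling noise (chi-square per degree of freedom 15.4 to 58.1). The steps were tested on simulated data. Figures were drawn with matplotlib 3.10.9.

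The 10 genes and all lists, 132 entries in all with Csf1r and Spi1 each on more than a single list, were chosen with earlier results of these data known. The genes named are the 10, in each list the 4 called genes with the largest change and a mean of at least 10 normalized counts, up to 6 receptor genes with the most counts and the macrophage markers. Others are said to be named after their values were seen.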

Additional observations from a re-analysis of the deposited data

How the results depend on the processing

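Tnf, Il1rn and Csf1 kept their call and direction in all 14 other fits, and Il23a in the 13 that kept it, with adjusted p values of at most 0.0375, 0.000198, 0.000775 and 0.000699. The number of cytokine genes called lower was 0 where a log2 fold change beyond 2 was required, since Il1rn fell by 1.81, and the number called higher was 2, without Tnf. Leaving out each library in turn gave 3 to 4 genes called higher, the fourth being Il1a without DMSO replicate 3, and 1 lower, where 12% to 17.7% of all tested genes were higher and 14% to 18.9% lower. Without the filter 4 were higher, Il6 among them (11.4% of all genes), and with at least 10 counts in every library 2, Il23a being dropped (18.3% of all genes). Il18 turned to -0.056 without SKI-II replicate 2 and to -0.089 without SKI-II replicate 3, and was 0.25 without SKI-II replicate 1. The share of Il1rn in the cytokine reads was 60.0% and 16.4% per kilobase of exon, in place of 83.1% and 30.5%, because its exons are long. DESeq2 called 1 receptor gene higher and 3 lower, since it tested Il1r1 and Il12rb2, which the filter had removed. It also called 2 decay factors higher and 2 lower (Arid5a and Hnrnpd being added), and DESeq2 and limma-voom each called 5 transcription regulators lower (Nfkbia being added); the cause was not tested. These genes were named after their values were seen. Over all genes DESeq2 called 15.3% higher and 15.8% lower, and limma-voom 19.7% lower. The labels do not say whether the replicate numbers pair the libraries. Deviations from the group means correlated at 0.241, 0.0153 and 0.447 for numbers 1, 2 and 3. For unlike numbers they correlated at -0.45 to 0.284. So few libraries cannot settle whether they are paired, and the main test took them as unpaired. With the replicate block 4 cytokine genes were higher and 1 lower, the addition being Il1a (adjusted p = 0.0456), and over all genes 2765 were higher and 2819 lower in place of 2255 and 2413. Depth limited Il6, Il1b, Il10 and Il12b, at 0 to 12 counts per group.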
